A study of Mus musculus with 8 samples.

Results

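The forkhead (Fox) family was followed through DNA methylation data from mouse nephron progenitors, as a set of 38 genes picked by symbol: Foxa1 to Foxa3, Foxb1, Foxb2, Foxc1, Foxc2, Foxd1 to Foxd4, Foxe1, Foxe3, Foxf1, Foxf2, Foxh1, Foxi1 to Foxi3, Foxj1 to Foxj3, Foxk1, Foxk2, Foxl1, Foxl2, Foxm1, Foxn1 to Foxn4, Foxo1, Foxo3, Foxp1, Foxp2, Foxp4, Foxq1 and Foxs1. Each gene stood for the CpGs in its body and in the 5 kb on both sides (mm10 coordinates). Of the 38 genes, 37 held at least 3 CpGs read at least 10 times in each of the 8 libraries, among 19429 genes of the whole series that did, and they held 2606 of the 441994 such autosomal CpGs. Foxi1 held none of these CpGs, although 19 of its CpGs were covered in at least 1 library, and is not described further. No CpG belonged to more than 1 member.

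The cells were nephron progenitors sorted as GFP-positive cells from kidneys of CD1 outbred embryos at E17.5. All embryos, restricted and unrestricted alike, were heterozygous for the transgene Tg(Six2-EGFP/cre), so the sort followed activity of the Six2 promoter, and both sexes were used. Wild-type dams of 8 to 10 weeks mated to transgenic males were either held to 70% of their average daily intake of food in pregnancy (restricted, 4 libraries) or fed without limit (unrestricted, 4 libraries). The assay was RRBS, reduced representation bisulfite sequencing. It sequences a CpG-rich fraction of the genome cut out with a restriction enzyme and reports, for each CpG, the share of reads that kept a methylated cytosine. No expression data are used here. The labels do not say how many embryos or litters made up a library. A p-value therefore concerns these 8 libraries, whose spread may be partly technical. For tiles, start windows and CpGs it rests on read counts and on a dispersion shared in part across all units.

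Fox proteins bind DNA through the forkhead or winged-helix domain. FoxO factors are phosphorylated by Akt and held in the cytoplasm when insulin and growth factors signal through PI3-kinase, and they enter the nucleus to switch on stress, cell-cycle arrest and fasting genes when that signal is low. Foxd1 marks the stromal progenitors that surround the nephron progenitors in the embryonic kidney, Foxc1 and Foxc2 pattern the mesoderm from which the kidney arises, and FoxK proteins are broadly expressed, mainly as repressors. Among the Foxj and Foxp genes, Foxj1 is tied to ciliated cells and Foxp2 to tissues such as brain and lung, while Foxj2, Foxj3, Foxp1 and Foxp4 are expressed more widely. CpG-rich gene starts are normally unmethylated whether or not the gene is expressed, while CpGs inside genes and between genes are often methylated.

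The promoters below show what the RRBS reads covered at the start of 5 members, with the CpGs that had at least 10 reads in every library in capitals. They are the 250 bases before the RefSeq start (mm10), written 5′ to 3′ in the direction of transcription, and were picked to show each class: Foxc1 for the stromal group, Foxo3 for the nutrient-responsive group, Foxj3 and Foxp1 for the Foxk, Foxj and Foxp group, and Foxd3 because it had the highest promoter level of the family.
Foxc1: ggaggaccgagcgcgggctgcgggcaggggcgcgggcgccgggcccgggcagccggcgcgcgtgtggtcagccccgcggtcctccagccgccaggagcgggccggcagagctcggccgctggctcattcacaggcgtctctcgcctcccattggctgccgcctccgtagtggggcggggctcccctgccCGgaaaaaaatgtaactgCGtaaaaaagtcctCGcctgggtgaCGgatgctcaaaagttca
Foxo3: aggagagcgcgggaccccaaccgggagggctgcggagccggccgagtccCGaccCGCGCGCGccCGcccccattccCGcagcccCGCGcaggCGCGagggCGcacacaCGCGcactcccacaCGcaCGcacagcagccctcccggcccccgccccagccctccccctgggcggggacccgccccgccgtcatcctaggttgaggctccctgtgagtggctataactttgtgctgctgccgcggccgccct
Foxj3: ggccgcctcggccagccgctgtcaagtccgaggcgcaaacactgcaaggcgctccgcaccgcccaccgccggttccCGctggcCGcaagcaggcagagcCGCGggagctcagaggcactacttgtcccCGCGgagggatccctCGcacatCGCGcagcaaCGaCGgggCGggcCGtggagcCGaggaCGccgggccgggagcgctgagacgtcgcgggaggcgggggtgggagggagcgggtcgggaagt
Foxp1: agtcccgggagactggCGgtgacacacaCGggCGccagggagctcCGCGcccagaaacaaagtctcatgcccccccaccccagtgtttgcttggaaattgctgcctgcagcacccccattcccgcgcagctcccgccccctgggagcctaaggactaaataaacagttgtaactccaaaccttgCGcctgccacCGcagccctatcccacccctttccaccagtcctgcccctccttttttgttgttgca
Foxd3: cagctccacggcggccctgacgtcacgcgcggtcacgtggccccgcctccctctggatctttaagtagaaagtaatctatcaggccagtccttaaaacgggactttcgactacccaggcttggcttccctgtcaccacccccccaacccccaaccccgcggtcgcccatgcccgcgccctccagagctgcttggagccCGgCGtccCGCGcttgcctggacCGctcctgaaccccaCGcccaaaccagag
Their positions are chr13:31806396-31806645, plus strand, for Foxc1, chr10:42276696-42276945, minus strand, for Foxo3, chr4:119539411-119539660, plus strand, for Foxj3, chr6:99520994-99521243, minus strand, for Foxp1, and chr4:99656049-99656298, plus strand, for Foxd3.

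In Foxo3 16 of the 31 CpGs of this stretch were measured, in Foxj3 15 of 34, in Foxp1 7 of 11, in Foxd3 6 of 21 and in Foxc1 4 of 29. None of the 1438 restricted and 1916 unrestricted counts over the Foxo3 CpGs was methylated. These counts are reads summed over CpGs, so a read that covers several CpGs counts once for each. Taken as independent, they allow a level of up to 0.209% and 0.157% (3 of the total). The limits are wider where reads cover several CpGs. None of the 625 restricted and 503 unrestricted counts over the Foxc1 CpGs was methylated either, with limits of 0.48% and 0.596% on the same terms. The mean level over the 8 libraries was 0.0380% in Foxj3, 0.204% in Foxp1 and 0.820% in Foxd3. The Foxd3 stretch went from 0.858% ± 0.508 in unrestricted to 0.782% ± 0.113 in restricted libraries (SD, n = 4 each), a difference within the spread of the unrestricted libraries. The RefSeq promoter table held 25 members, and these stretches carried a median of 18 CpGs, against 6 over the 25748 promoters of the table. The most CpG-rich was that of Foxk2, with 48, and the least that of Foxi2, with 3. CCGG, the site of the enzyme MspI on which RRBS is usually built, occurred in 72% of the members' stretches and in 47.6% of all. The forkhead motif TGTTTAC, searched on both strands as TGTTTAC and GTAAACA occurred in 1 of the 25 members, Foxa1, a share of 4% against 3.10% of all promoters of that length. Of the 25 stretches, 10 had a measured CpG, and none of these 10 had a mean level above 0.820%.

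Before the levels, 2 libraries need naming. Reads per library over CpG cytosines ranged from 16045992 to 37305007, and the median shared CpG had 20 to 44 reads. In restricted libraries 1 and 2 the reads leaned to unmethylated CpGs, with a read-weighted mean 2.24 and 3.28 points below the plain mean over shared CpGs, while the other 6 libraries lay between -0.575 and 0.817 points. Region levels here are plain means over CpGs, and results were also computed without both libraries. RRBS reads carry no molecular identifiers here, so intervals and limits cover counting error only. Read numbers given for more than 1 CpG are sums over CpGs, in which a read that covers several CpGs counts more than once.

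The Fox genes lay mostly in unmethylated DNA. The median region level of the 37 members was 0.870%, against 5.06% over all 19429 genes, and 94.0% of the members' CpGs were below 20%, against 80.2% of all. In 20 members the region level was under 1%, and in 16 every shared CpG was below 20%. The lowest levels were those of Foxd1 (0.0255% over 70 CpGs), Foxj3 (0.0394% over 53), Foxn2 (0.0417% over 31), Foxk2 (0.0673% over 47) and Foxd2 (0.0714% over 96). The libraries of these 5 genes overlapped and reached at most 0.184%. Next came the developmental regulators Foxe3 (0.145%), Foxq1 (0.201%), Foxi3 (0.222%), Foxl2 (0.260%), which is needed in the ovary, Foxd4 (0.309%), Foxb2 (0.358%), Foxb1 (0.375%) and Foxd3 (0.449%), a neural crest and stem cell factor. Foxa1 (0.609%), Foxf2 (0.636%), Foxc1 (0.771%), Foxa2 (0.792%), Foxe1 (0.815%), Foxn4 (0.870%) and Foxf1 (0.887%) filled the range up to 1%.

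Above 1% stood Foxc2 (1.49%), Foxp2 (1.69%), Foxo3 (2.41%), Foxl1 (2.99%), Foxo1 (3.05%), Foxm1 (5.33%, a driver of the cell cycle), Foxj2 (5.57%) and Foxj1 (8.16%, the master regulator of motile cilia). Foxp1 (12.1%), Foxh1 (12.9%), Foxk1 (13.3%) and Foxp4 (13.5%) came next. The 5 highest regions were Foxi2 (23.8%), Foxa3 (25.5%), Foxn3 (27.0%), Foxn1 (30.2%) and Foxs1 (44.3%). Of these, Foxi2, Foxn1 and Foxs1 rested on 8, 5 and 7 CpGs, while Foxa3 had 40 and Foxn3 101. In Foxs1, 6 of the 7 CpGs lay in 1 tile outside the gene. The lower level of Foxm1 came from 1 of its 5 CpGs, outside the gene, and the rest were at 0% in every library. In the order of the 37 levels, 35 of the 36 pairs of neighbours had overlapping libraries; only Foxj1, at most 9.64%, and Foxp1, at least 11.7%, were apart. Across the 37 members, the region level correlated weakly with gene length (Spearman's rho 0.321) and with the number of shared CpGs (rho -0.242); the points share their libraries, and this is a description across genes.

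**Figure D1:**
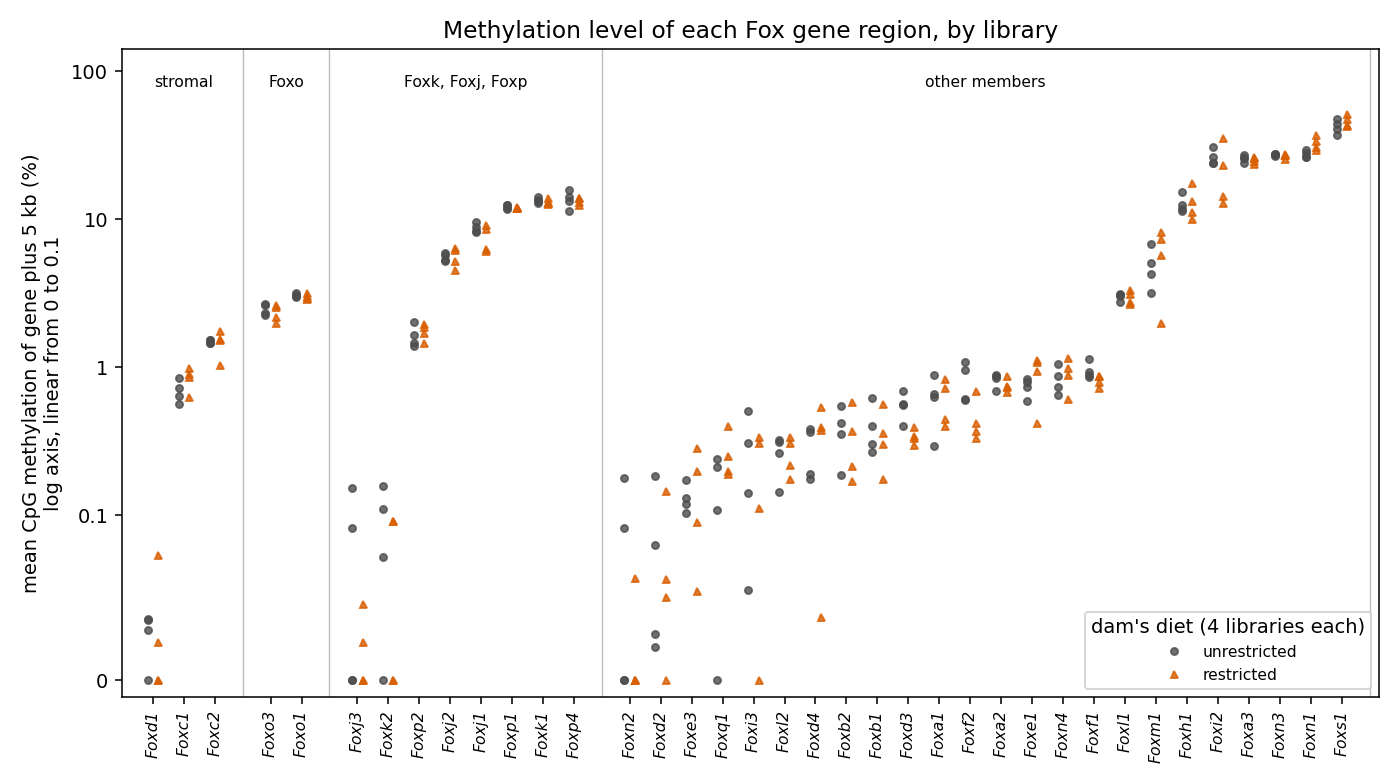
Mean CpG methylation of each Fox gene with 5 kb on both sides (vertical axis, percent, logarithmic above 0.1 and linear below) in each library, with circles for unrestricted and triangles for restricted dams. The genes run from near 0 in Foxd1 to 44.3% in Foxs1, and the diet groups overlap in every gene but Foxd3.

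The contrast of classes followed the levels away from the gene start. The stromal genes Foxd1 (chromosome 13, 98354245 to 98356705), Foxc1 (chromosome 13, 31806646 to 31810635) and Foxc2 (chromosome 8, 121116171 to 121118895) averaged 0.761% over 336 CpGs, as a mean of gene levels. The nutrient-responsive genes Foxo1 (chromosome 3, 52268337 to 52350109) and Foxo3 (chromosome 10, 42181845 to 42276695) averaged 2.73% over 223 CpGs, the 8 Foxk, Foxj and Foxp genes 6.79% over 462 CpGs, and the other 24 measured members 7.46% over 1585 CpGs. In Foxd1 the restricted libraries 1 to 4 had region levels of 0.0758, 0, 0.0234 and 0%, and the unrestricted ones 0.0366, 0.0373, 0 and 0.0304%. In Foxc1 they had 0.992, 0.856, 0.903 and 0.629%, against 0.853, 0.731, 0.568 and 0.638%. All 8 libraries thus stayed below 0.1% in Foxd1 and between 0.568 and 0.992% in Foxc1, with overlapping diet groups in both. In Foxc2 the values were 1.55, 1.04, 1.77 and 1.53% with restriction and 1.47, 1.54, 1.47 and 1.52% without. The restricted libraries of Foxc2 spread on both sides of the 4 unrestricted ones.

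In Foxo1, which regulates gluconeogenesis and cell survival, the restricted libraries had 2.90, 3.16, 2.95 and 3.03% and the unrestricted ones 3.05, 3.20, 3.07 and 3.00%. In Foxo3, a FoxO factor linked to stress resistance and autophagy, they had 2.56, 2.19, 2.01 and 2.63% and 2.25, 2.67, 2.31 and 2.64%. Every library of both FoxO genes lay above every library of the 3 stromal genes. In the next class, Foxk1 (chromosome 5, 142401497 to 142462015) had 12.7, 13.1, 13.9 and 12.9% with restriction and 12.9, 14.1, 13.5 and 13.2% without, whereas Foxk2 averaged 0.0673%. Foxp1 (chromosome 6, 98925342 to 99522746), a factor of lymphocyte and neural development, had 11.90, 11.99, 11.90 and 12.07% and 11.73, 12.40, 11.96 and 12.49%. The 8 genes of this class were therefore not alike: Foxj3 and Foxk2 stood among the lowest of the family, and Foxk1, Foxp1 and Foxp4 above 10%.

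The class means carried no test, since the classes were chosen with earlier results of these data known, and they depended on the coverage minimum. With at least 20 reads instead of 10, 233 CpGs remained in the Foxk, Foxj and Foxp genes and their mean was 0.868%, below the 1.26% of the 3 stromal genes, and of the FoxO genes only Foxo3 kept 3 or more CpGs, at 0.0673%. Foxk1 went from 13.3% to 0.0568% over 66 CpGs and Foxp1 from 12.1% to 1.28% over 33, so most of their methylated CpGs had fewer than 20 reads in at least 1 library. Foxc2 went the other way, from 1.49% to 3.36% over 40 CpGs. With at least 5 reads the order was that of the main setting, at 0.595%, 3.22% and 13.5% for the stromal, the FoxO and the Foxk, Foxj and Foxp genes.

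At the gene start all classes were nearly unmethylated. Start windows ran from 1000 bp before to 500 bp after the RefSeq start in 19 members, and in 9 members that it does not hold from 1000 bp outside to 500 bp inside the gene end with more CpGs. The mean window level was 0.146% in the stromal class, 0.0913% in the FoxO class, 0.0544% in the Foxk, Foxj and Foxp class and 0.861% in the other members. The median over the 28 members was 0.104%, close to the 0.0728% of all 12625 windows, and all 28 were below 20%, against 95.7% of all. The Foxm1 window, placed by the gene end with more CpGs, was the highest, at 5.71% over 5 CpGs. This level came from the CpG at position 128362018 alone, outside the gene, with a mean of 26.6%. The others had 0% in every library. In Foxa1 no read of the 8 CpGs was called methylated in any library. Summed over CpGs and taken as independent, the 1104 restricted and 1399 unrestricted counts allow up to 0.272% and 0.214%.

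The classes parted inside the genes, at the minimum of 10 reads. In CpGs inside the gene but outside the window, the mean was 0.0745% in the stromal class, 4.87% in the FoxO class, 14.9% in the Foxk, Foxj and Foxp class and 11.8% in the others. The stromal genes are short, with a median length of 2725 bp, against 88312 bp for the FoxO genes. The other members, at 11.8% inside the gene, had a median length of 3749 bp. The part of gene length in these levels was not tested. Beyond the ends of the genes, the Foxk, Foxj and Foxp class had 23.1% ± 1.37 in unrestricted and 19.9% ± 1.97 in restricted libraries (SD, n = 4 each), from 78 CpGs of 5 genes. The restricted values of 18.4, 20.9, 18.0 and 22.1% overlapped the unrestricted values of 22.8, 21.5, 23.1 and 24.9%. This was the largest of the class differences in any compartment, with no test.

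**Figure D2:**
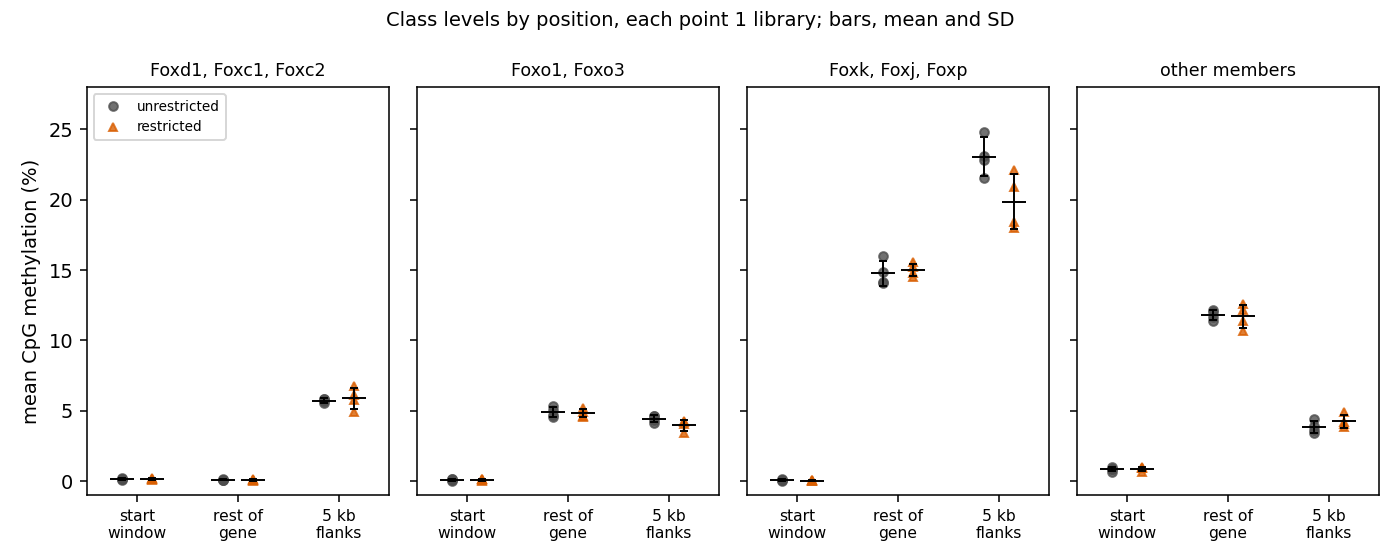
Mean CpG methylation (vertical axis, percent) of the 4 classes of Fox genes in start windows, in the rest of the gene and in the 5 kb flanks, with 1 point per library and the mean and SD of the 4 libraries of each diet. Start windows are near 0 in every class, and the rest of the gene reaches 14.9% in the Foxk, Foxj and Foxp class against 0.0745% in the stromal class.

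The unmethylated DNA around the start reached far in the Fox genes. A run was counted from the measured CpG nearest the RefSeq start, if within 500 bp, and was followed in both directions, within 10 kb, while CpGs were below 20% and at most 2 kb apart. Its span was 789 to 4475 bp in the 19 members where it could be set, with a median of 2260 bp, and was longer in all 19 than the median of 506 bp over 9825 genes. The span also depends on how many CpGs are read nearby. It was longest in Foxo3, from -1857 to 2618 bp relative to the start and over 148 CpGs, and in Foxd3, at 4465 bp. Foxo1 had 3066 bp, Foxp1 2373 bp, Foxc1 2260 bp and Foxd1 931 bp, and Foxk2 had the shortest. In Foxd1 and Foxk2 the run held all 70 and 47 shared CpGs of the region. It thus ended where measured CpGs ran out, and it began 180 and 99 bp after the start. Past the run of Foxo3, the 2 measured CpGs that lay 2000 to 5000 bp before its start averaged 77.0%.

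**Figure D3:**
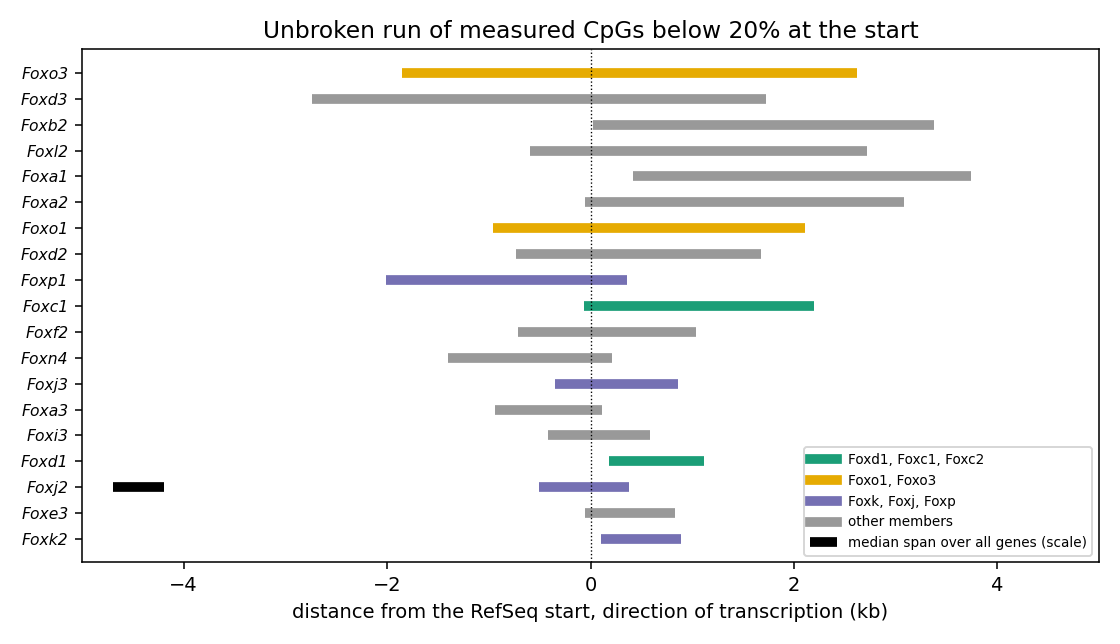
Extent of the unbroken run of measured CpGs below 20% around the RefSeq start (horizontal axis, kb from the start in the direction of transcription) in 19 Fox genes, coloured by class. The black bar shows the median span over all genes, 506 bp, as a scale; every Fox gene drawn has a longer run, up to 4475 bp in Foxo3.

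Methylated stretches of Fox genes were found mainly deep inside long genes. Of 156 tiles of 1 kb with at least 3 CpGs, 22 had a level of 20% or more, in 10 genes, and 19 of the 22 lay inside the gene. None belonged to the stromal class, 1 to the FoxO class, 8 to the Foxk, Foxj and Foxp class and 13 to the other members. Of the 18 in genes with a RefSeq start, 16 lay over 5 kb from it. The 4 highest were a tile about 5 kb from Foxm1 (chromosome 6, 128357001 to 128358000), which lies in Rhno1, at 97.5%, one in Foxn3, a checkpoint gene (chromosome 12, 99451001 to 99452000), at 94.6%, one in Foxk1 (chromosome 5, 142435001 to 142436000) at 93.8% and another in Foxn3 (chromosome 12, 99262001 to 99263000) at 93.7%. The libraries of these 4 tiles overlapped. A tile was counted whole if any part of it overlapped the region of a member. The Foxm1 tile only touches the edge of the Foxm1 region, and none of its 3 CpGs is among the 5 shared CpGs of that region. Of those 5 CpGs, 0 were above 80%. Foxn3 alone held 9 of the 22. The RefSeq start used for Foxn3 (99450074, minus strand) lies inside its gene body, which runs to 99563667, so its distances are from an internal start. Its tile at 94.6% is centred at -1426 bp relative to that start. This tile and the Foxi2 tile, at 24.3% and centred 1133 bp after the Foxi2 start, are those within 5 kb.

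The only FoxO tile of 20% or more lay inside Foxo3, with its centre 62195 bp after the start (chromosome 10, 42214001 to 42215000; 6 CpGs), at 30.0% ± 3.51 without and 30.4% ± 5.80 with restriction (SD, n = 4 each). Foxp1 held 4, of which the highest had 78.1% (chromosome 6, 99031001 to 99032000) and was centred 489493 bp after the start. The highest stromal tile lay before the start of Foxc1 (chromosome 13, 31802001 to 31803000) and had 17.2%. In none of these did the diet groups differ by more than the larger SD.

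Maternal restriction gave no called change in any Fox gene. In the logistic model with limma's moderated dispersion and Benjamini-Hochberg adjustment, 0 of 149 tested tiles, 0 of 27 start windows and 0 of 991 CpGs passed an adjusted p of 0.05, and in the limma test of region levels 0 of 37. Over the whole series the same tests called 0.0177% of 33897 tiles, 0.124% of 11335 start windows, 0.0997% of 191637 CpGs and 0% of 18896 regions, and the members' counts of 0 are read against these shares. At an unadjusted p under 0.05 there were 4 tiles (2 higher and 2 lower), no start window, 38 CpGs (22 higher and 16 lower) and 3 regions (1 higher and 2 lower). The background shares at that threshold were 6.32, 6.95, 5.62 and 4.69%, and the members lay below them for tiles, windows and CpGs and above for regions, a difference that was not tested. The edgeR test also called 0 tiles, 0 windows and 0 CpGs of the family, against 0.325, 0.15 and 0.048% over the series. The limma test on M-values called 0% of the tiles, windows and CpGs of the whole series, and the region test 0% of its regions. The counts of 0 that these tests gave in the family therefore carry no information. At the shares called by the logistic model and edgeR, few or no calls would arise among so few member units. Those counts of 0 thus say little about the family. In simulated tiles of intermediate level changed by 20 points, limma on M-values recovered 0%, edgeR 26% and the logistic model 59%. The median absolute difference of member tiles of 20% or more was 1.64 points over 22 tiles, against 1.66 points over all 13274 such tiles.

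Among regions, the diet groups were fully apart in 1 of 37 members, Foxd3, a share to be read against 2.62% over all genes. Foxd3 (chromosome 4, 99656299 to 99658671) had 0.404, 0.691, 0.560 and 0.562% in unrestricted and 0.395, 0.335, 0.346 and 0.298% in restricted libraries over 102 CpGs. All 4 restricted libraries lay below the lowest unrestricted one, but by a small margin. The means were 0.554% ± 0.118 and 0.344% ± 0.0403 (SD, n = 4 each; limma, adjusted p = 0.946). The difference of -0.211 points was -0.0818 with at least 20 reads per CpG. Foxf2, a mesenchymal factor, had 0.817% ± 0.248 and 0.456% ± 0.163, with overlapping groups (limma, adjusted p = 0.946; difference -0.361 points, -0.109 with at least 20 reads).

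Foxn1, the factor that thymic epithelium needs, had the largest difference of the regions, 5.18 points, from 27.6% ± 1.42 to 32.8% ± 3.50 (limma, adjusted p = 0.946). It was 2.31 points with at least 5 reads per CpG and 7.87 without restricted libraries 1 and 2. The region holds only 5 CpGs, and the difference came from one of them. At chromosome 11, position 78364768, inside the gene and 21840 bp after its start, the unrestricted libraries had 74.2, 59.4, 66.7 and 77.3% and the restricted ones 93.1, 84.6, 100 and 100%. Every restricted library lay above every unrestricted one. The other 4 CpGs of Foxn1 differed by -1.59 to 1.04 points. With 12 to 32 reads per library the exact 95% binomial interval ran from 40.6 to 76.3% in unrestricted library 2 and from 54.6 to 98.1% in restricted library 2. The means were 69.4% ± 8.02 and 94.4% ± 7.31 (SD, n = 4 each; logistic model with limma's moderation, adjusted p = 0.0846; limma on M-values, adjusted p = 0.507; edgeR, adjusted p = 0.301). Without restricted library 2 this CpG passed the test in the logistic model (difference 28.3 points, adjusted p = 0.0107), and without restricted libraries 1 and 2 as well (30.6 points, adjusted p = 0.0127). Over all the settings run, its adjusted p ranged from 0.0107 to 0.836.

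Of the other CpGs of smallest p, that of Foxo3 was fully apart too. It lies 3353 bp before the start, at chromosome 10, position 42280048, and had 74.5, 76.2, 87.2 and 83.3% in unrestricted and 62.2, 72.7, 60 and 70.4% in restricted libraries (logistic model with limma's moderation, adjusted p = 0.479). All restricted libraries were lower, with 11 to 66 reads behind each value. Groups were also fully apart, and lower with restriction, at the next CpG by p, in Foxp1 (position 98994751), and at a CpG of Foxa1 (position 57548453). These CpGs and that of Foxn1 were picked for small p, which favours groups that are apart. The share of all single CpGs with groups fully apart was not counted, so these separations have no background beside them. In Foxp4, at chromosome 17, position 47867361, the restricted libraries were all at 100% and the unrestricted ones at 88.2, 92.7, 80 and 100% (adjusted p = 0.36). The unrestricted library at 100% made the groups touch, and the difference of 9.77 points was 6.36 without unrestricted library 3. In Foxe1, a thyroid factor, the CpG at chromosome 4, position 46343940, was at 0% in all 4 unrestricted libraries and at 11.1, 0, 7.69 and 18.2% in the restricted ones (adjusted p = 0.413). These values stand for 0 to 3 methylated reads of 11 to 33. In Foxf1, a lung and gut mesenchyme factor, the CpG at chromosome 8, position 121089526, was at 0% in the unrestricted libraries and at 8.47, 6.67, 0 and 0% in the restricted ones (adjusted p = 0.466). The methylated reads of Foxf1 came from restricted libraries 1 and 2 alone; the difference of 3.79 points was 2.22 without library 1 and 0 without both.

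**Figure D4:**
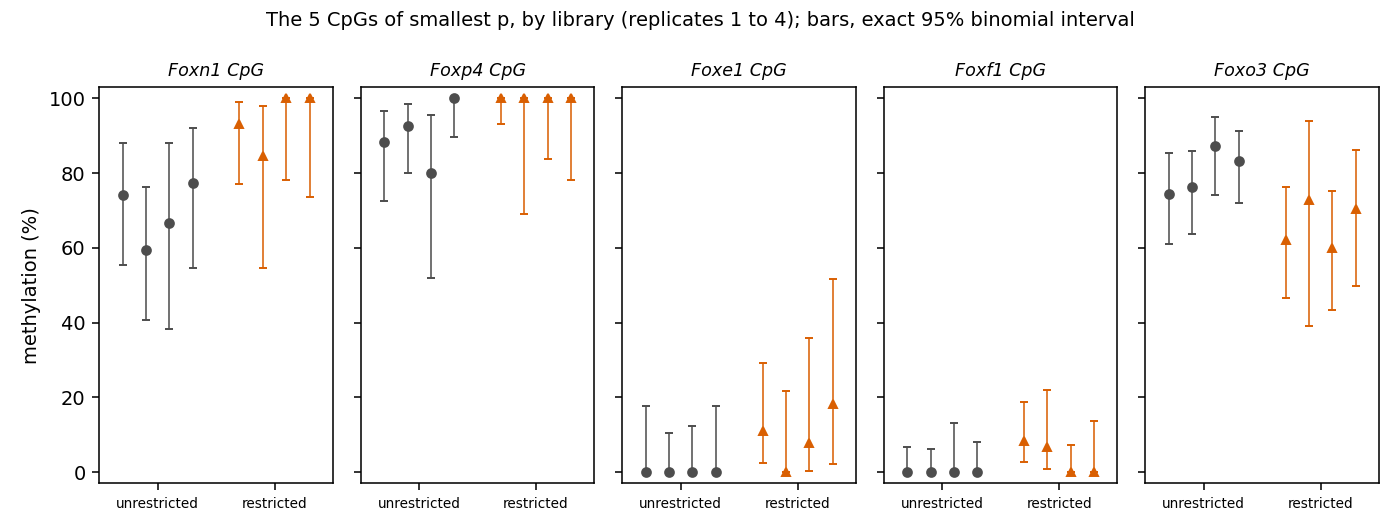
Methylation (vertical axis, percent) of the 5 Fox CpGs of smallest p in each library, replicates 1 to 4 of each diet from left to right, with exact 95% binomial intervals for counting error. The groups are fully apart for the Foxn1 CpG, which is higher with restriction, and the Foxo3 CpG, which is lower.

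The tiles of smallest p had small differences in unmethylated DNA or stood on few CpGs. The first lay after the end of Foxc1 (chromosome 13, 31811001 to 31812000; 33 CpGs, 934 to 1717 reads), with 0.287, 0.256, 0 and 0.303% in unrestricted and 1.34, 0.846, 0.281 and 0.314% in restricted libraries (logistic model with limma's moderation, adjusted p = 0.733). Restricted libraries 1 and 2 stood high and the other 2 among the unrestricted ones. The 23 methylated reads of restricted library 1 fell on 5 of the 33 CpGs. The difference of 0.484 points was 0.269 without restricted library 1 and 0.0861 without both of these libraries, whose reads also leaned to unmethylated CpGs; the part of that lean in this result was not tested. In the tile after the end of Foxd3 (chromosome 4, 99660001 to 99661000, 8 CpGs) none of the 439 restricted counts was methylated, against 8 of 575 unrestricted counts. The counts are summed over CpGs and, taken as independent, allow up to 0.683% with restriction. Its unrestricted libraries had 0, 2.42, 1.25 and 1.19%, so the groups met at 0 (adjusted p = 0.737).

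The tile across the 5′ boundary of Foxa1, with its centre at -2389 bp relative to the RefSeq start (chromosome 12, 57548001 to 57549000; 4 CpGs), which overlaps Ttc6, had 2.39% ± 1.19 without and 0.673% ± 0.909 with restriction (adjusted p = 0.76). Foxa1 is a pioneer factor of endoderm. A tile inside Foxn3 (chromosome 12, 99267001 to 99268000; 3 CpGs) had 91.5% ± 2.28 and 95.7% ± 2.81 (adjusted p = 0.773), and the difference of 4.22 points was 1.79 without restricted libraries 1 and 2. A tile in Foxo1, centred 2163 bp after its start (chromosome 3, 52270001 to 52271000; 12 CpGs), had 0.518, 1.28, 1.36 and 0.798% and 0.428, 0.415, 0 and 0.671% (adjusted p = 0.773). The Foxo1 groups overlapped, with restricted library 4 above unrestricted library 1. In Foxa3, a liver and gut factor, the tile (chromosome 7, 19021001 to 19022000; 3 CpGs) had 14.7% ± 6.85 and 9.60% ± 3.24 (adjusted p = 0.773), a difference within the unrestricted SD. It went from -5.05 to -2.18 points without unrestricted library 2, to -7.77 without unrestricted library 1 and to -2.92 without restricted libraries 1 and 2.

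**Figure D5:**
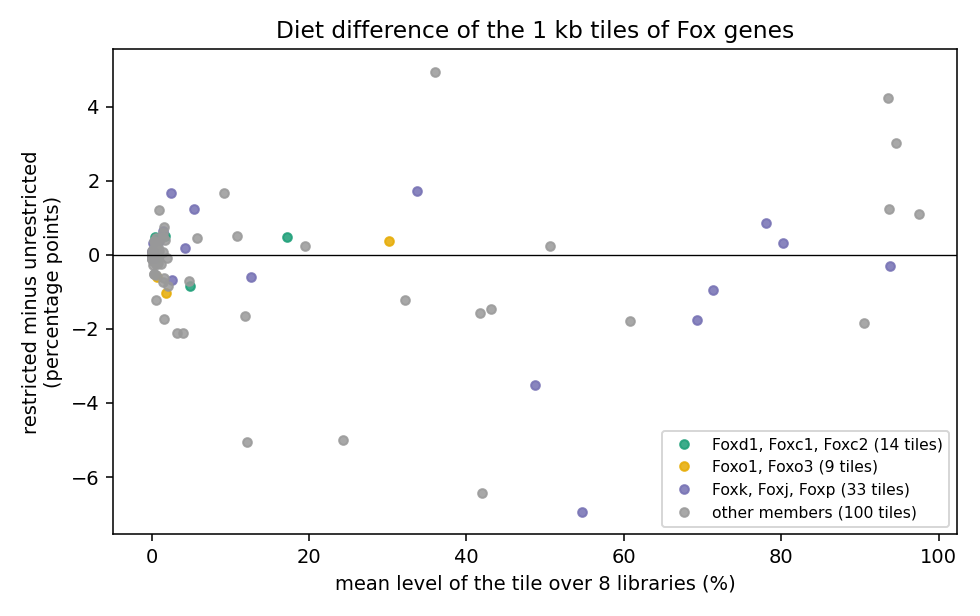
Difference between restricted and unrestricted libraries (vertical axis, percentage points) against the mean level (horizontal axis, percent) for the 156 tiles of 1 kb in Fox genes, coloured by class. Most tiles lie near 0 on both axes; none passed the test, and the differences run from -6.95 to 4.95 points.

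No start window of the contrasted classes passed the test. The windows of the stromal genes had 0.0286 and 0.0353% in Foxd1, 0.0417 and 0% in Foxc1 and 0.302 and 0.331% in Foxc2, without and with restriction. The FoxO windows had 0.1002 and 0.149% in Foxo1 and 0.0572 and 0.0850% in Foxo3. Each of these levels stands for a few methylated reads per library. Foxk1 had 0.0343 and 0.0212%, Foxk2 0.0399 and 0.0290%, Foxj1 0.0539 and 0%, and Foxj2 0.0334 and 0.0660%. Foxj3 had 0.0857 and 0.0325%, Foxp1 0.0509 and 0.0856%, and Foxp2 0.169 and 0.0595%. Their adjusted p ranged from 0.675 to 0.982 in the logistic model, and the groups overlapped in all 12. The 6 member windows of smallest p were those of Foxd2 (0.0377 and 0%), Foxb2 (0.949 and 0.394%), Foxe1 (0.934 and 1.39%), Foxf2 (0.144 and 0.0427%), Foxq1 (0.0436 and 0%) and Foxj3 (0.0857 and 0.0325%) without and with restriction, each with an adjusted p of 0.675.

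Genes that act with Fox factors were looked up in the same tests. Of the FoxO pathway (20 genes from the insulin receptor through PI3-kinase and Akt to FoxO cofactors), 0 of 19 regions, 0 of 13 tested start windows and 0 of 62 tested tiles passed. At an unadjusted p under 0.05 stood 8 of these 62 tiles and 1 of the 13 windows, against 6.32% of all tiles and 6.95% of all windows. The share of tiles was above that of the series, a difference that was not tested. The median region level of the pathway was 4.65%. Its gene of smallest p was Mdm2, a ubiquitin ligase, by region (limma, adjusted p = 0.946) and Igf1r, the IGF1 receptor, by window, at 0.115% without and 0% with restriction (adjusted p = 0.675). Of 15 FoxO targets, among them cell-cycle inhibitors and antioxidant enzymes, 0 of 14 regions, 0 of 12 windows and 0 of 31 tiles passed. Of the 31 tiles of these targets, 2 had an unadjusted p under 0.05, near the share of all tiles. Their median region level was 0.139%; Bcl6 had the smallest p by region (adjusted p = 0.946) and the stress gene Gadd45a by window (0.0815% and 0%, adjusted p = 0.675). Of 15 stromal genes, 0 of 14 regions, 0 of 7 windows and 0 of 68 tiles passed. Of the 68 tiles of these stromal genes, 4 had an unadjusted p under 0.05, also near the share of all tiles. Their median region level was 11.2%, with Col1a1 first by region (adjusted p = 0.946) and Pdgfrb by window (4.61% and 3.43%, adjusted p = 0.675).

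The labelled cell type could be compared only with the methylation of marker genes. Start windows of nephron progenitor markers had a median of 0.0450% (5 windows, Six2 at 0.0664%), those of stromal markers 0.0524% (3), of ureteric bud markers 0.205% (3) and of podocyte and tubule markers 0.139% (3). Low levels at these starts were thus not particular to progenitor markers. Endothelial and blood markers had no start window, and their regions had median levels of 46.7% (4 genes) and 49.2% (2 genes). Region medians, the like measure, were 1.56% for nephron progenitor (7 genes) and 1.98% for stromal markers (6). They were 3.70% for ureteric bud (4) and 5.33% for podocyte and tubule markers (6). A few cells of another type in the sort and partial methylation in all cells cannot be told apart at levels such as those of the tiles near 1%.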

How the data were processed

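The deposited RRBS files hold, per the file headers, the count of reads over each CpG cytosine and the percent of them methylated and unmethylated. Bismark 0.13.1, Trim Galore 0.3.3, methylKit, cutadapt, FastQC and the build mm10 are listed, without settings or order, in the submitters' processing notes. Multiplying count and percent gave the methylated reads (within 0.0488 of a whole number), both strands of a CpG were summed, and a minimum of 10 reads per CpG was asked of all 8 libraries.

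Groups and replicate numbers came from the labels. Tiles, CpGs and start windows with at least 1 methylated and 1 unmethylated read were tested by a logistic model with a diet term, its dispersion moderated by limma 3.58.1 (squeezeVar) and not under 1. Region levels, plain means over CpGs, were tested by limma with a trend. P-values were adjusted by Benjamini-Hochberg over all autosomal units (R 4.3.3), and calls needed an adjusted p under 0.05. Class means had no test. Gene positions, starts and promoter sequences came from RefSeq tables of the GRCm38 assembly, whose coordinates are those of mm10. The members and lists were chosen with earlier results of these data known. Named were all members by region level, every window of the contrasted classes, the 6 tiles and windows and 5 CpGs of smallest p, the 4 highest tiles and the gene of smallest p per list.

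Data were simulated at the depths of these libraries, with changes put only into units of intermediate level and a small fixed extra spread between libraries. Among 36513 tiles the logistic model recovered 59% of those changed by 20 points and 4% of those changed by 10. At 20 points it also recovered 20% of CpGs among 191637 and 51% of windows among 12625, and the region test 76% of regions among 19429. The simulated region level was weighted by reads, unlike the plain mean that was tested. Since 85.9% of member tiles were below 20%, these rates do not describe the power in most Fox tiles. In unchanged units the logistic model called 8 tiles and 101 CpGs. Alternatives were limma on M-values, edgeR 4.0.16, other coverage minimums, tile sizes, windows and gene flanks, a replicate block, and leaving out libraries. Reads by library ranged from 16045992 to 37305007.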

Additional observations from a re-analysis of the deposited data

Results flagged for a closer look

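In the values of 124 groups of 4 libraries (member regions, class levels, the named tiles and CpGs, and the start windows of the contrasted classes), 10 had 1 library far from the other 3. For normally distributed values chance gives about 1 in 20, here 6.2. A group with 1 library above 0 and the other 3 at 0 is always flagged, so 6.2 is no chance expectation for such groups. Foxn3 held the only one at a substantial level: its region had 25.7% in restricted library 1 against 27.2 to 27.5% in the other restricted libraries. In the tile after the end of Foxc1, unrestricted library 3 had 0% against 0.256 to 0.303% in the others. The remaining 8 were a single library above 0 where the other 3 of its group were at 0. They were the region of Foxn2 in restricted library 1 (0.0620%) and the start windows of Foxc1 in unrestricted library 4 (0.167%), of Foxd1, Foxj1 and Foxj2 in unrestricted library 2 (0.114, 0.216 and 0.134%), of Foxk1 in restricted library 2 (0.0849%), and of Foxk2 and Foxp2 in restricted library 4 (0.116 and 0.238%).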

How the results depend on the processing

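The counts of called tiles, windows, regions and partner units stayed at 0 in all settings run for them. The count of called CpGs was 0 except without restricted library 2, so it ranged from 0 to 1 when 1 library was left out, and it was 1 without restricted libraries 1 and 2; both times it was the Foxn1 CpG. The Foxf1 CpG had a difference of 0 without these 2 libraries. With the replicate number as a block, 0 tiles, windows, CpGs and regions passed; same-numbered libraries correlated by -0.107 to 0.0193, so the numbers were not taken as pairs, and in simulated data the block recovered 0% of the changed tiles.

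Class levels moved by more than their spread with the choice of CpGs. At coverage 20 they were 1.26% (stromal), 0.0673% (Foxo), 0.868% (Foxk, Foxj and Foxp) and 2.91% (others), at coverage 5 0.595, 3.22, 13.5 and 11.9%, and in the gene body alone 0.0637, 4.401, 6.41 and 6.90%. With 10 kb flanks the stromal level was 0.853%. As a mean over all CpGs of the class, the stromal level was 0.888%, that of Foxk, Foxj and Foxp 8.15% and that of the others 3.72%. Weighted by reads, the stromal, Foxo and Foxk, Foxj and Foxp levels were 0.968, 2.95 and 5.46%. Without Foxj1 and Foxp2 the plain level of the Foxk, Foxj and Foxp class was 7.42%, against 6.79% with all its genes. The diet difference of the Foxk, Foxj and Foxp class, -0.225 points, was 0.123 at coverage 20, 0.0762 in the body alone and -0.752 weighted by reads, and that of Foxo, -0.0946 points, was -0.986 weighted by reads and -0.0107 at coverage 20. With 1 library left out, these differences ranged from -0.292 to -0.134 points (Foxk, Foxj and Foxp; highest without unrestricted library 4), from -0.146 to -0.0274 (Foxo; highest without restricted library 3, -0.0415 without unrestricted library 2), from -0.0901 to 0.474 (others, 0.177 with all libraries, negative without restricted library 3 only) and from 0.000452 to 0.0888 (stromal, 0.0396 with all). None of these differences has a test or a stable size. These values come from other CpGs, members or weights; further causes were not tested. In simulated units of intermediate level, a change of 20 points was recovered in 20% of CpGs and 59% of tiles, which differ both in depth and in the number of tests.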
